A study of Chlorocebus sabaeus with 4 samples.

Results

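Genes of the major histocompatibility complex (MHC) and of antigen presentation were followed in the corpus luteum, the progesterone-making gland of the ovary, of 2 vervet monkeys. They were chosen by gene symbol and not by their values. Of 31 listed genes, 30 had at least 1 probe set that named them, out of 19775 genes on the array, and IFI30, a thiol reductase of the endosome, is not analysed here. Among the probe sets whose symbol was or included a gene, the brightest on average over the 4 samples stood for that gene.

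Both animals were adult female Chlorocebus sabaeus of 16 years from a research colony. Monkey 1031 was the calorie restriction animal and monkey 1030 the ad libitum animal, and each gave samples 1 and 2 and served as its own control for the effect of weight change. The labels do not give the order of collection, and a change is sample 2 minus sample 1 throughout. Diet and animal cannot be told apart, since each diet was given to 1 animal. The p-values for differences between the animals reflect only how far samples of the same animal lie apart. Each of the 4 samples was frozen luteal tissue on 1 array, so differences between the samples of 1 animal are unreplicated and given without p-values, and the number of arrays limits the precision. In such bulk tissue, fewer cells of a type and less RNA per cell cannot be told apart.

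Of the 30 genes, 25 had a mean log2 signal of 5.26 or more, the median over genes, and the 9888 genes at or above it are the ones tested. ERAP2, NLRC5, HLA-DOB, CIITA and CD1D lay below it and are given as values only. Sample 2 of the ad libitum animal was far from the rest, with 912 to 1031 of the 9888 genes 2-fold apart from any other sample, and the remaining 3 samples differed from one another in 122 to 332. All 8 markers of luteal steroidogenic cells were past the level filter, and each was at least 2-fold lower in sample 2 than in sample 1 of that animal.

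MHC class I molecules sit on nearly all nucleated cells and show peptides from the cytosol to cytotoxic T cells. Proteasomes cut the peptides, the TAP1 and TAP2 transporter carries them into the endoplasmic reticulum, and they are loaded there onto a heavy chain paired with beta-2 microglobulin. MHC class II molecules are made chiefly by macrophages, dendritic cells and B cells, take peptides cut in endosomes, and show them to helper T cells, and interferon gamma raises both classes. Luteal tissue holds resident macrophages, whose numbers are known to grow as the gland regresses. The members were divided into 15 class I genes, 13 class II genes and 2 measured genes of neither, CTSS and CD1D.

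The probes were designed on human genes. None of the 15 members with HLA symbols is found under that symbol in the vervet assembly mChlSab1.0.hap1 as annotated by RefSeq, whereas all 16 other members are. An HLA symbol in this report names the human gene of the probe set. Whether vervets carry a working counterpart of each was not examined. The probe sets of all 5 class I heavy chains have IDs that end in _x_at, which marks probes shared between genes by design, so the 5 are not 5 separate measurements and can read other class I genes too. The probe set of HLA-DQB1 also names HLA-DRB1, HLA-DRB4 and HLA-DRB5, and that of HLA-DQA1 also names HLA-DQA2. MHC genes vary between individuals of a species, and how well the probes matched the sequences of these animals was not tested.

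In the ad libitum animal, class I and class II genes had changes of opposite sign. All 15 class I genes were lower in sample 2 than in sample 1 (median log2 change -0.62), and 10 of 13 class II genes were higher (median 0.26), while the median of all 9888 genes was -0.013. A change below 0 was found in 51.4% of all genes tested and a change above 0 in 48.5%. Most of these changes were under 2-fold. At 2-fold or more, 3 members were lower, TAPBP, PSMB9 and PSMB10, and 1 was higher, CTSS, beside 6.58% of all genes lower and 2.66% higher. These counts and medians describe 2 arrays and carry no test. The class II median was 0.42 with probe sets of 1 symbol only and 0.16 with all probe sets of a gene averaged.

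**Figure D1:**
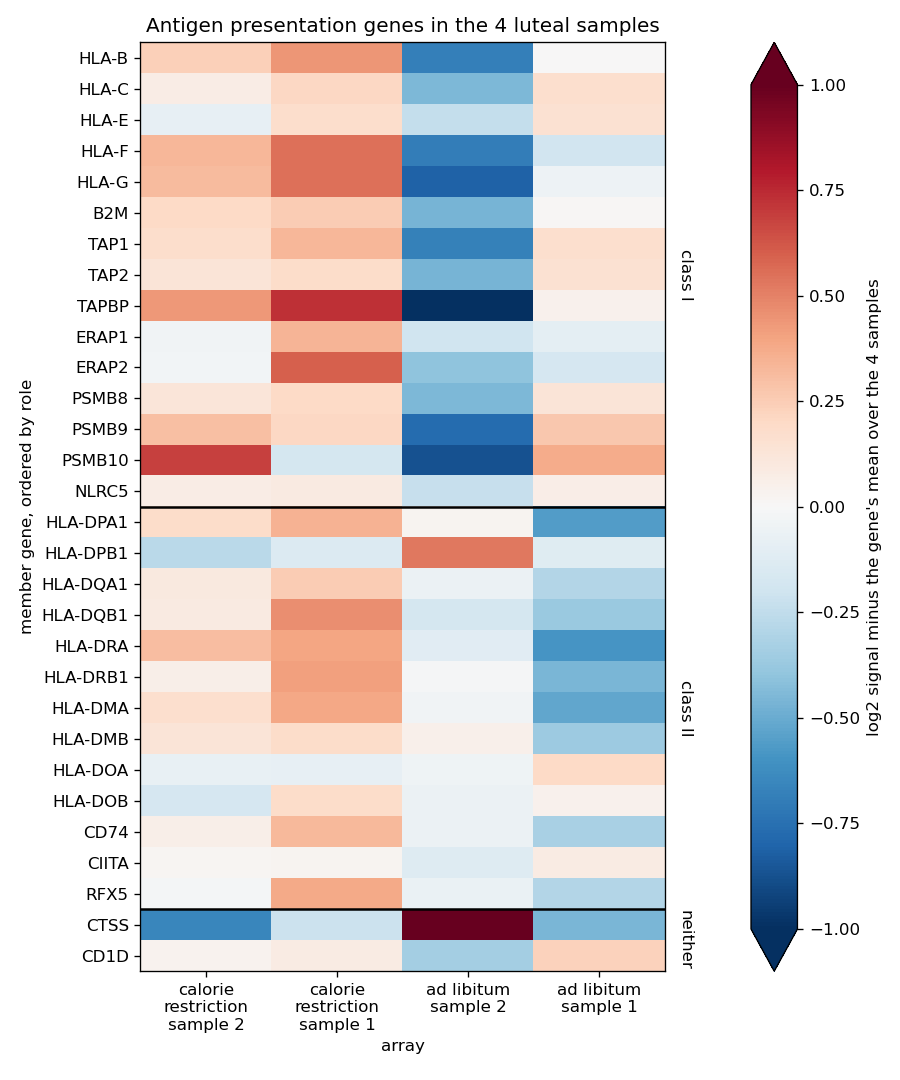
The colour shows the log2 signal of each of 30 members (rows, ordered by role) in each of the 4 arrays (columns), minus that gene's mean over the 4 samples, with the scale ending at 1 either way. All 15 class I genes were lowest in sample 2 of the ad libitum animal, and 9 of 13 class II genes were lowest in its sample 1.

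Among the class I heavy chains, HLA-B, a classical heavy chain that presents peptides to cytotoxic T cells, had a log2 signal of 12.62 in sample 2 and 12.82 in sample 1 of the calorie restriction animal, and 11.70 in sample 2 and 12.38 in sample 1 of the ad libitum animal. Both calorie restriction samples lay above both ad libitum samples, and the ad libitum animal's sample 2 was the lowest of the 4. The change of HLA-B within the ad libitum animal was -0.68, or 1.61-fold lower. The probe set of HLA-C, the other classical human chain among the members, changed by -0.62. Those of the nonclassical human chains changed by -0.39 (HLA-E, a ligand of natural killer cell receptors), -0.50 (HLA-F) and -0.76 (HLA-G, in humans best known from the placenta). In the calorie restriction animal the 5 heavy chains had changes of -0.26 to -0.13.

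B2M, the light chain that every class I heavy chain needs to reach the cell surface, had 12.56 and 12.62 in samples 2 and 1 of the calorie restriction animal, against 11.90 and 12.37 in those of the ad libitum animal. The change was -0.057 in the calorie restriction animal and -0.47 in the ad libitum animal. Its probe set is not of the _x_at kind and does not name a heavy chain. The other B2M probe sets past the level filter had changes of -0.89 and 0.20 in the ad libitum animal.

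The peptide supply genes had the largest class I changes. TAPBP, or tapasin, which holds empty class I molecules at the TAP transporter, had 9.67 and 9.96 in samples 2 and 1 of the calorie restriction animal, against 8.03 and 9.28 in those of the ad libitum animal. Its change in the ad libitum animal was -1.25, or 2.38-fold lower, and -0.29 in the calorie restriction animal was the same in sign. Its other probe set past the level filter gave -0.36 in the calorie restriction animal and -0.69 in the ad libitum animal, under 2-fold. TAP1, a subunit of the peptide transporter, had 7.71 and 7.87 in samples 2 and 1 of the calorie restriction animal, against 6.86 and 7.70 in those of the ad libitum animal. The ad libitum animal's sample 1 lay within 0.17 of the calorie restriction samples, and its sample 2 lay well below all 3. TAP2, the other subunit, changed by -0.048 in the calorie restriction animal and by -0.62 in the ad libitum animal.

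The immunoproteasome subunits PSMB8, PSMB9 and PSMB10 replace catalytic subunits of the standard proteasome and favour peptides that fit class I. PSMB10 had 9.15 and 8.30 in samples 2 and 1 of the calorie restriction animal, against 7.60 and 8.84 in those of the ad libitum animal. Sample 2 was 1.81-fold above sample 1 (0.86) in the calorie restriction animal and 2.36-fold below it (-1.24) in the ad libitum animal. No other member was 1.5-fold apart in opposite directions, a pattern found in 1.18% of all genes in this direction and 1.45% in the other. PSMB9 had 7.51 and 7.41 in samples 2 and 1 of the calorie restriction animal, against 6.44 and 7.48 in those of the ad libitum animal, so that 3 samples lay together and the ad libitum animal's sample 2 lay 2.06-fold under its sample 1 (-1.04). PSMB8 changed by -0.083 and -0.58 in the calorie restriction and ad libitum animals. The standard catalytic subunits PSMB5, PSMB6 and PSMB7 changed by 0.27, 0.29 and 0.39 in the calorie restriction animal and by -0.97, -0.62 and -0.29 in the ad libitum animal.

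On the brightest probe set of each, the peptide trimmers of the endoplasmic reticulum differed from the rest of class I. ERAP1 changed by -0.37 in the calorie restriction animal and -0.10 in the ad libitum animal, and ERAP2, below the level filter, by -0.63 and -0.23. They were the only class I members with a larger decrease in the calorie restriction animal. With all probe sets of a gene averaged, most of them below the level filter, these changes shrank. ERAP1 came to -0.11 in the calorie restriction and 0.0039 in the ad libitum animal, and ERAP2 to -0.33 and -0.036. NLRC5, the coactivator of class I genes, lay just below the filter and had 5.23 and 5.25 in samples 2 and 1 of the calorie restriction animal, against 4.93 and 5.23 in those of the ad libitum animal. Its change was -0.016 in the calorie restriction animal and -0.30 in the ad libitum animal.

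Among the class II genes, HLA-DRA, the alpha chain of the DR molecule, had 10.51 and 10.59 in samples 2 and 1 of the calorie restriction animal, against 10.09 and 9.61 in those of the ad libitum animal. Both calorie restriction samples lay above both ad libitum samples, and the ad libitum animal's sample 1 was the lowest. The change was -0.078 in the calorie restriction animal and 0.48 in the ad libitum animal, and the other HLA-DRA probe set had a change of 0.32 in the ad libitum animal. All 6 classical chains were lower in sample 2 of the calorie restriction animal and higher in that of the ad libitum animal. HLA-DRB1, the DR beta chain, changed by -0.35 in the calorie restriction animal and by 0.45 in the ad libitum animal. The DP chains HLA-DPA1 and HLA-DPB1 changed by -0.16 and -0.13 in the calorie restriction animal and by 0.58 and 0.65 in the ad libitum animal.

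Probe sets of the classical chains did not all give the same change. For HLA-DPA1, 2 other probe sets past the level filter had changes of -0.29 and -0.048 there, opposite to the 0.58 of the brightest. The DQ chains HLA-DQA1 and HLA-DQB1 changed by -0.15 and -0.38 in the calorie restriction animal and by 0.24 and 0.19 in the ad libitum animal. The brightest probe set that names HLA-DQB1 alone had 8.49 and 8.91 in samples 2 and 1 of the calorie restriction animal, against 8.70 and 7.59 in those of the ad libitum animal, a change of 1.11 in the ad libitum animal that passed 2-fold. With it, the ad libitum animal's sample 1 was the lowest of the 4 as before, while its sample 2 lay between the calorie restriction samples.

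The chains that assist peptide loading were alike in sign for the most part. CD74, the invariant chain that blocks the class II groove and guides the molecule to endosomes, had 8.31 and 8.57 in samples 2 and 1 of the calorie restriction animal, against 8.18 and 7.92 in those of the ad libitum animal. The change was -0.27 in the calorie restriction animal and 0.26 in the ad libitum animal, where a second probe set past the filter gave 0.43. HLA-DMA and HLA-DMB, the pair that exchanges the invariant chain fragment for peptide, changed by -0.22 and -0.057 in the calorie restriction animal and by 0.49 and 0.42 in the ad libitum animal. HLA-DOA and HLA-DOB form the inhibitor of that pair and are known chiefly from B cells. HLA-DOA changed by 0.00078 in the calorie restriction animal and by -0.25 in the ad libitum animal, and HLA-DOB, below the level filter, by -0.35 and -0.10.

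Of the class II regulators, CIITA, the master coactivator of class II genes, lay below the filter with 5.00 and 5.01 in samples 2 and 1 of the calorie restriction animal, against 4.86 and 5.07 in those of the ad libitum animal. It was among the 3 class II members, with HLA-DOA and HLA-DOB, that were lower in sample 2 of the ad libitum animal, and 2 of these 3 were below the filter. RFX5, a DNA-binding subunit of the complex that sits on class II promoters, changed by -0.40 in the calorie restriction animal and by 0.22 in the ad libitum animal, although a second probe set gave 0.26 and -0.12.

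CTSS, or cathepsin S, cuts the invariant chain in the endosomes of antigen-presenting cells. It had 7.56 and 7.996 in samples 2 and 1 of the calorie restriction animal, against 9.53 and 7.76 in those of the ad libitum animal. The ad libitum animal's sample 2 stood above the other 3 samples, 3.41-fold (1.77) over its sample 1, the largest change of any member. The other probe set past the level filter gave 0.95. CD1D, which presents lipids to natural killer T cells, lay far below the level filter, with changes of -0.047 in the calorie restriction animal and -0.57 in the ad libitum animal.

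**Figure D2:**
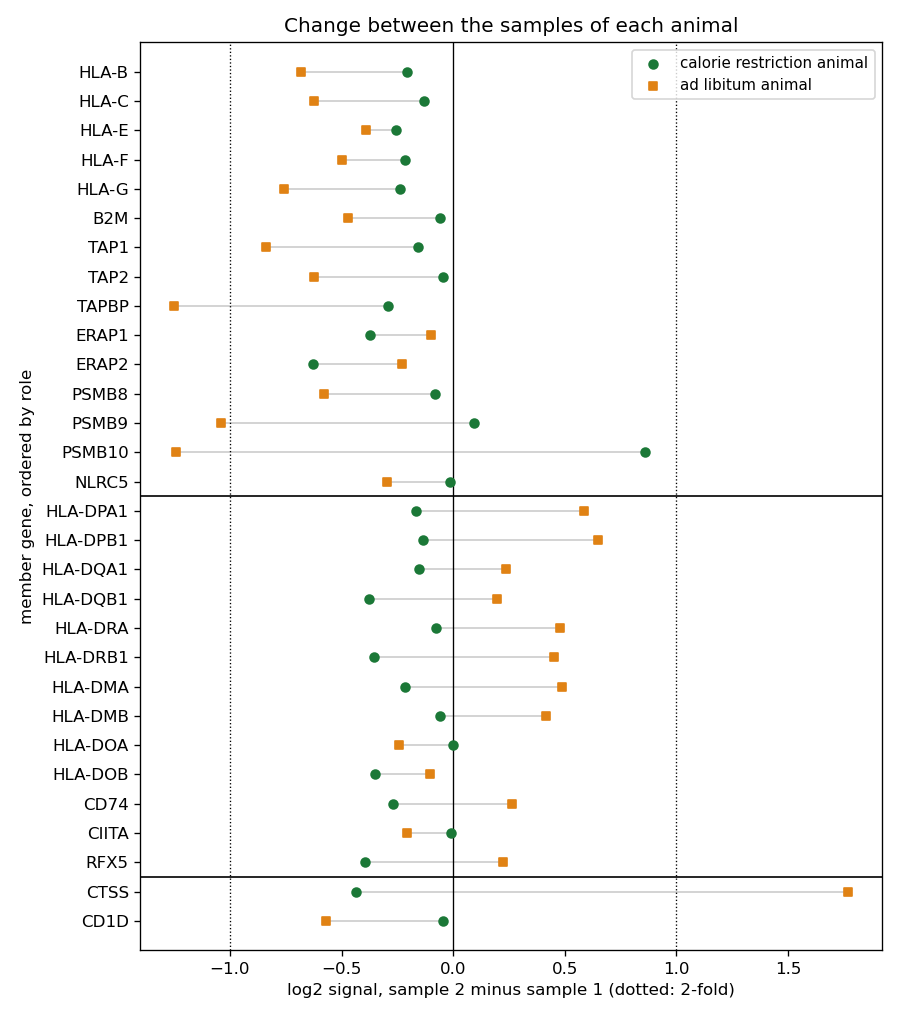
Each row is a member, the x axis is the log2 signal of sample 2 minus that of sample 1, circles are the calorie restriction animal and squares the ad libitum animal, with 1 array per sample and no error bar. The class I squares all lie left of 0, 10 of the 13 class II squares lie right of 0, and the circles lie left of 0 for 27 of 30 members.

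In the calorie restriction animal, the classes had the same small change. The class I median was -0.16 and the class II median was also -0.16, against -0.026 for all genes tested, and no member was 2-fold apart, beside 1.23% of all genes either way. A change below 0 was found in 27 of 30 members and in 54.3% of all genes. The exceptions were PSMB10, PSMB9 (0.095) and HLA-DOA. Without _x_at probe sets the class I median was -0.063. The class II median minus the class I median was -0.0078 in this animal and 0.89 in the ad libitum animal.

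The animals' changes were also read together for each gene. Of the class II genes, 10 of 13 had a change below 0 in the calorie restriction animal with one above 0 in the ad libitum animal, as did 30.2% of all genes tested, and no class I gene did. Of the class I genes, 13 of 15 were below 0 in both animals, beside 24.1% of all genes. In a limma fit of the ad libitum change minus the calorie restriction change, with the animal as a block and 1 residual degree of freedom, 0 of the 25 members tested and 0% of all genes passed an adjusted p of 0.05. The residual of that fit is the change that same-numbered samples of both animals share. Nothing ties these samples together, so its p-values depend on how the samples were numbered. At an unadjusted p of 0.05, PSMB10 and CTSS passed, beside 7.45% of all genes. PSMB10 had an adjusted p of 0.65 and CTSS of 0.66 in that limma fit.

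Between the animals, most members were higher in the calorie restriction samples. In 18 of 30 members both calorie restriction samples lay above both ad libitum samples, beside 16.6% of all genes tested, and in 2, HLA-DPB1 and HLA-DOA, both lay below, beside 18.7%. The 18 were 9 of the 15 class I and 9 of the 13 class II genes. The median difference, calorie restriction minus ad libitum, was 0.50 for class I and 0.36 for class II, against -0.010 for all genes. TAPBP was the only member with no overlap and a 2-fold difference, a pattern of 1.81% of all genes. It averaged 9.82 ± 0.21 in the calorie restriction animal and 8.65 ± 0.88 in the ad libitum animal (SD, n = 2 each), a difference of 1.16 (limma SE 0.45).

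No difference between the animals passed the test. With limma over all 4 samples and Benjamini-Hochberg adjustment, 0 members and 0% of all genes had an adjusted p under 0.05, and TAPBP had 0.88. At an unadjusted p of 0.05, 3 members passed, HLA-F (difference 0.88, SE 0.25), HLA-G (0.87, SE 0.31) and HLA-DRA (0.70, SE 0.24), beside 5.28% of all genes. An adjusted p over the threshold does not show that the animals were alike.

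The classes differed in which sample of the ad libitum animal was most often the lowest. All 15 class I genes had their lowest signal in its sample 2, beside 36.4% of all genes, and 9 of 13 class II genes had theirs in its sample 1, beside 20.1%. Without the ad libitum animal's sample 2, the class I median difference was 0.089 and the class II median 0.52. Without its sample 1, they were 0.69 and 0.24. For the 5 class I heavy chains the median was 0.34 without its sample 2 and 1.02 without its sample 1. Its sample 2 lay below both calorie restriction samples in 15 class I and 10 class II genes, beside 41.2% of all genes. Its sample 1 did so in 9 and 9, beside 32%. With only the ad libitum animal's sample 2 kept, the array far from the rest, TAPBP differed by 1.79, HLA-G by 1.25 and CTSS by -1.75. These members were chosen after their values were seen. CTSS came to 0.022 without sample 2 instead. Since 1 ad libitum sample gives no spread of its own, only the differences are given.

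The size of the difference between animals varied with the probe set for some MHC genes. For HLA-E, the brightest probe set gave 0.090, a second of the _x_at kind 0.29, and the third, which is not of that kind, 1.73. This last one had 9.36 and 9.43 in samples 2 and 1 of the calorie restriction animal, against 7.77 and 7.55 in those of the ad libitum animal, with little change within either animal. For HLA-DQB1, the probe sets past the level filter gave 0.55 to 2.06. The highest value came from one with 8.69 and 9.08 in samples 2 and 1 of the calorie restriction animal, against 7.31 and 6.34 in those of the ad libitum animal. Over the distinct probe sets past the level filter, 18 of 27 for class I and 16 of 22 for class II were higher in the calorie restriction animal with no overlap, and 0 and 2 were lower. Without the _x_at kind, 6 of 12 and 10 of 13 were higher, and 0 and 1 lower. The probe sets left are not all of a single gene, since that of HLA-DQA1 also names HLA-DQA2. The share over all probe sets was not computed, and over all genes tested it was 16.6% higher and 18.7% lower.

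**Figure D3:**
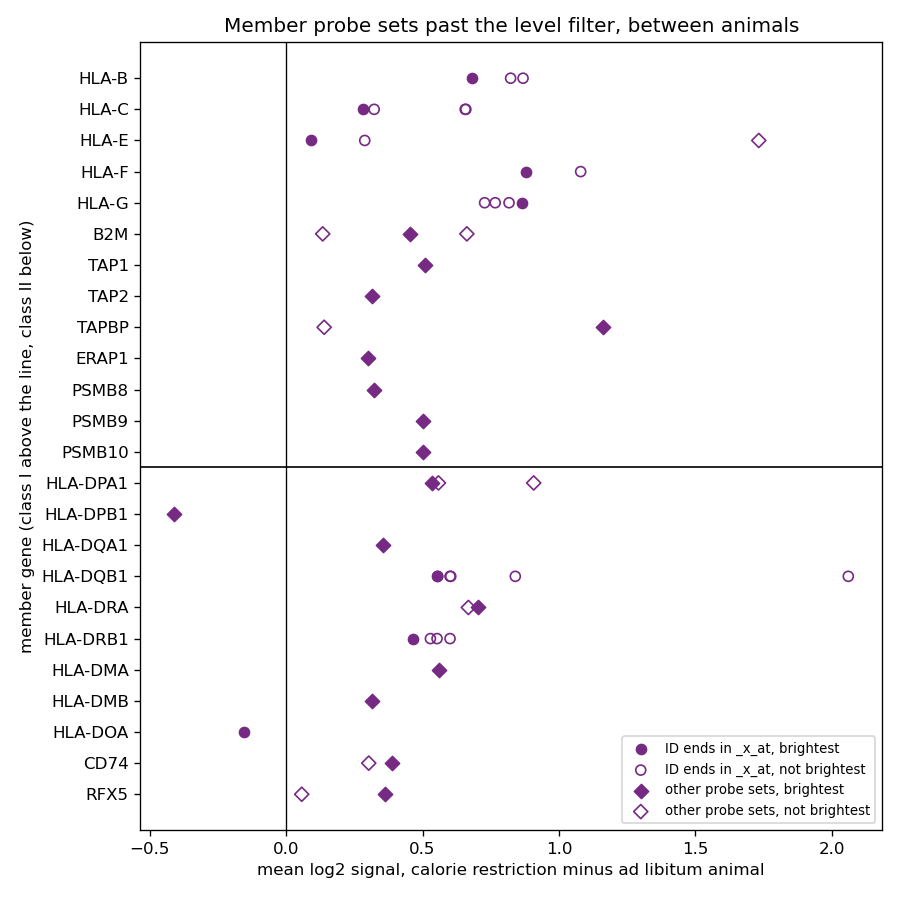
Each point is a probe set past the level filter, placed on the x axis by its mean log2 signal over the calorie restriction samples minus that over the ad libitum samples (n = 2 each), with filled points for the brightest probe set of a gene, and a probe set that names 2 members is drawn for both. Class I probe sets range from 0.090 to 1.73 and class II probe sets from -0.41 to 2.06.

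The within-animal contrast of the classes was also found over probe sets. In the ad libitum animal, 25 of 27 class I probe sets past the level filter were lower in sample 2 and 18 of 22 class II probe sets were higher, with medians of -0.67 and 0.42. Leaving out the _x_at kind, these counts were 10 of 12 and 10 of 13, with medians of -0.66 and 0.32. HLA-E was then the only heavy chain left past the filter. Its remaining probe set, with a mean log2 signal of 8.53, had a change of 0.21 in the ad libitum animal. The lower class I signal without the _x_at kind was therefore not seen for a heavy chain. The 2 class I exceptions were that HLA-E probe set and a B2M probe set, each the dimmest of its gene past the filter.

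Other genes of the pathways divided less evenly. Of 15 other measured genes listed with the class I pathway, HFE, MR1 and FCGRT among them, 12 were lower in sample 2 of the ad libitum animal (median -0.51). The chaperones CALR (-1.11), part of the class I loading complex, and HSPA5 (-1.32), a general chaperone of the endoplasmic reticulum, were the 2 that were 2-fold lower. Their median in the calorie restriction animal was -0.042, with none 2-fold apart. PSME1, a subunit of the interferon-induced proteasome cap, was among the 3 with a change above 0 in the ad libitum animal (0.42), while PSME3, of a related nuclear cap, had -0.98. The 19 other genes listed with the class II pathway included CD1 molecules and costimulators. None was 2-fold apart in either animal, and the median was -0.13 in the calorie restriction animal and 0.038 in the ad libitum animal. Between the animals, 2 of the 19 were higher in the calorie restriction samples with no overlap and 6 lower (median difference -0.12). Of the 15 listed with class I, 3 were higher and 0 lower (median difference 0.23). Over all genes tested the shares were 16.6% and 18.7%. MARCHF1, a ubiquitin ligase that removes class II from the surface, had changes of -0.39 in the calorie restriction animal and 0.91 in the ad libitum animal, and the costimulator CD86 had -0.46 and 0.55.

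Interferon gamma signalling genes had small changes. None of 9 measured was 2-fold apart in either animal, and their median was -0.22 in the calorie restriction animal and -0.17 in the ad libitum animal. IRF1, a factor that acts on class I and TAP1 promoters, changed by -0.49 in the calorie restriction animal and -0.30 in the ad libitum animal, and GBP1, an interferon-induced GTPase, by -0.49 and -0.63. IFNG itself lay below the level filter. Both calorie restriction samples were above both ad libitum samples in 4 of the 9, IRF1 and GBP1 among them, beside 16.6% of all genes tested. They were below in 1, SOCS1, an inhibitor of the pathway, beside 18.7%. None of those tested had an adjusted p under 0.05 in the limma fit between the animals.

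Markers of cells that carry these molecules also differed between the samples. In the ad libitum animal, 8 of 11 measured macrophage markers were higher in sample 2 (median 0.27), and their summed linear signal was 3375 in sample 2 and 2213 in sample 1. AIF1 (1.23) and FCER1G (1.05) were 2-fold higher and CD163 (-1.28) 2-fold lower. The macrophage sum was 2947 in sample 2 and 3059 in sample 1 of the calorie restriction animal. The ad libitum animal's sample 1 was thus lowest for this sum, as for most class II genes, but its sample 2 was highest. The class II sums were 10043 and 12070 in samples 2 and 1 of the calorie restriction animal, and 9765 and 7264 in those of the ad libitum animal. Its sample 2 thus lay below both calorie restriction samples for class II. Of dendritic cell markers only 1 of 9 measured, and of B cell markers 1 of 6, was past the level filter. Of T and natural killer cell markers, 3 of 9 measured were.

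Markers of vessels and of the steroidogenic cells went the other way. All 10 endothelial markers were lower in sample 2 of the ad libitum animal (median -0.97, 5 of them 2-fold), with sums of 2786 and 3843 in samples 2 and 1 of the calorie restriction animal and of 1178 and 2524 in those of the ad libitum animal. The class I sums were 24016 and 26593 in the calorie restriction animal and 13940 and 21332 in the ad libitum animal. Both the endothelial sums and the T and natural killer cell sums given below had the same order over the 4 samples as these. The 8 luteal steroidogenic markers summed to 13664 and 8177 in samples 2 and 1 of the calorie restriction animal and 2560 and 22943 in those of the ad libitum animal. In the calorie restriction animal, 4 of these 8 were 2-fold higher in sample 2, and 1 endothelial marker was 2-fold lower. With no overlap, 3 of 10 endothelial and 2 of 11 macrophage markers were 2-fold higher in the calorie restriction animal. This was so for 1.81% of all genes. The sum of 9 T and natural killer cell markers was 1430 and 1609 in the calorie restriction animal and 335 and 487 in the ad libitum animal, with GNLY making up most of it in all samples but the ad libitum animal's sample 2. The part of these cell types in the changes of the members was not tested.

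**Figure D4:**
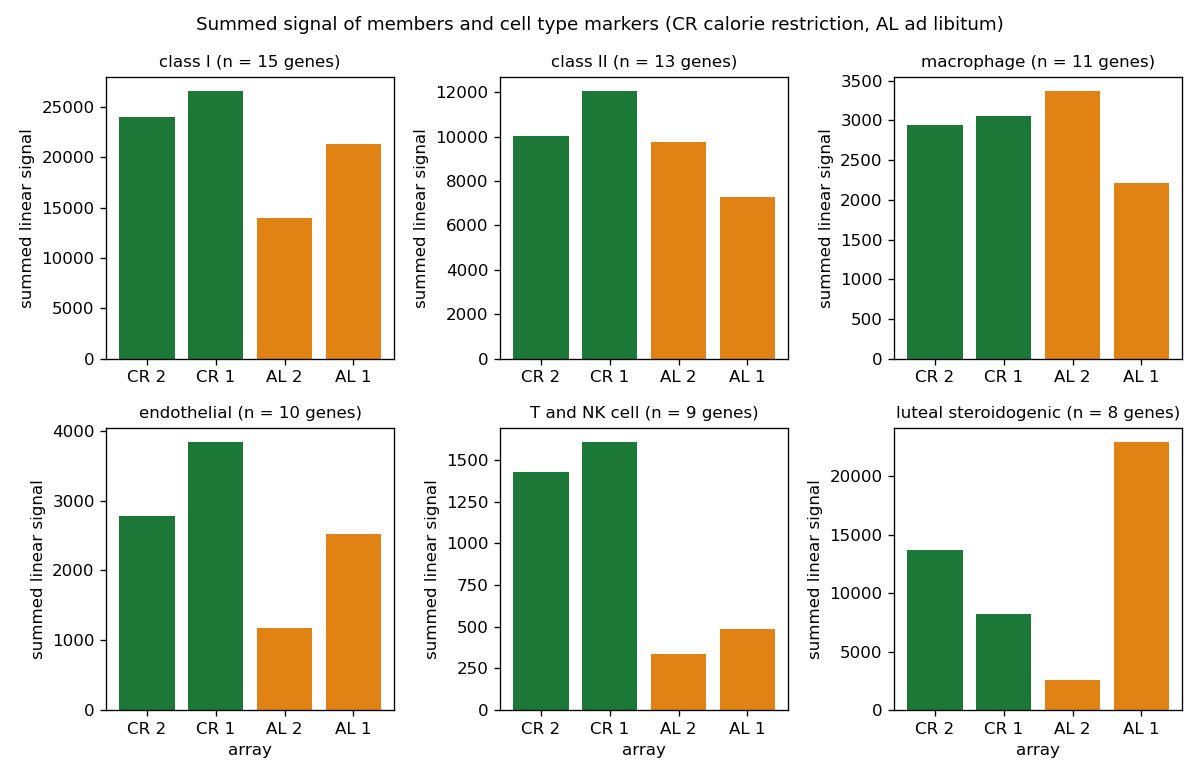
Bars give the summed linear signal (2 to the power of the deposited log2 value, arbitrary units) of each gene list in samples 2 and 1 of the calorie restriction (CR) and ad libitum (AL) animals, 1 array each, so there are no error bars. The class I, endothelial, T and NK cell and luteal steroidogenic sums are lowest in sample 2 of the ad libitum animal. The class II and macrophage sums are lowest in its sample 1, and the macrophage sum but not the class II sum is highest in its sample 2.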

How the data were processed

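Luteal RNA of 2 vervet monkeys was amplified to labelled cRNA and hybridised, per the labels' protocols. The deposited table holds a log2 signal for each probe set, made with Affymetrix Power Tools and RMA, per the submitters' processing notes. Their versions and parameters are not given in the sources read for this report. Of 54675 probe sets, 62 controls were left out. Genes other than the members were represented by their brightest probe set with 1 gene symbol (41091 had 1, 1801 several), from GEO's platform annotation. Groups came from the diet and title labels. A change within an animal has no test and a 2-fold rule of size. Differences between animals (2 residual degrees of freedom) and opposed changes (1) were tested over 9888 genes with limma 3.58.1 (lmFit, eBayes with trend, Benjamini-Hochberg) in R 4.3.3, and the procedure was tested on simulated data.

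All members are accounted for. Sample values are given for those 2-fold apart in either animal or between animals with no overlap. They are also given for HLA-B, B2M, TAP1, NLRC5, HLA-DRA, CD74 and CIITA. From other lists, pathway and macrophage genes 2-fold apart within an animal are named. Endothelial and steroidogenic markers 2-fold apart, and macrophage markers 2-fold apart between animals, are counted and not named. The further genes named, and the second probe sets of members, were chosen after their values were seen. The members, lists, tests and alternatives were chosen with earlier results of these data known. Alternatives were 2 other level filters, the mean of all probe sets, probe sets with 1 symbol, cyclic loess, 1.5-fold, no trend, sample number as a block and leaving out each sample. Leaving out _x_at probe sets was added after seeing the data.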

Additional observations from a re-analysis of the deposited data

Results flagged for a closer look

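PSMB10, the immunoproteasome subunit, was the only member at least 1.5-fold apart in opposite directions in the 2 animals, with a change of 0.86 in the calorie restriction animal and -1.24 in the ad libitum animal. The ad libitum change minus the calorie restriction change was -2.10. Its adjusted p in the limma fit of opposed changes was 0.65, and between 0.57 and 0.80 over the alternatives of that fit. It has 1 probe set, and each change rests on 1 array per sample. Of the 8 luteal steroidogenic markers, 6 were likewise 1.5-fold higher in the calorie restriction and 1.5-fold lower in the ad libitum animal, beside 1.18% of all genes. Whether PSMB10 follows these cells was not tested.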

How the results depend on the processing

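The class medians within each animal kept their sign and moved by less than 0.20 under every alternative run for them, and the ad libitum class II minus class I median was 0.74 when all probe sets of a gene were averaged and 0.79 without _x_at probe sets. At 1.5-fold, 1 member was higher and 1 lower in the calorie restriction animal, and 2 were higher and 8 lower in the ad libitum animal, beside 5.95% and 24.7% of all genes either way. The share of all genes 2-fold apart was 0.799% and 5.78% in the calorie restriction and ad libitum animals with no level filter, and 0.809% and 5.997% on averaging all probe sets. With probe sets of 1 symbol, 2 members were 2-fold higher in the ad libitum animal, HLA-DQB1 (1.11) joining CTSS. On such averaging, TAPBP came to -0.66, HLA-DPA1 to 0.081 and HLA-DOA to 0.053 in the ad libitum animal. Without _x_at probe sets, HLA-B, HLA-C and HLA-G had no probe set, HLA-E came to 0.21, HLA-DQB1 to -0.47, HLA-DRB1 to -0.26 and HLA-DOA to 0.37 in the ad libitum animal, and HLA-F to 0.34 in the calorie restriction animal. The probe sets then used for HLA-DQB1, HLA-DRB1, HLA-DOA and HLA-F lay below the level filter. The cause of these shifts was not tested.

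Leaving out each sample in turn gave class I median differences between animals of 0.089 to 0.69 and class II medians of 0.24 to 0.52, with 0 to 474 genes and 0 to 3 members called. Sample numbers are shared between the animals, but nothing ties same-numbered samples together, and the correlation of their deviations over 9888 genes was -0.27. With sample number as a replicate block, 0 genes and 0 members were called, the class I median difference was 0.50 and the class II median 0.36. Detection above background was not analysed here, which limits the 5 members below the level filter most.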

Other observations

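GNLY, the cytolytic protein granulysin of cytotoxic T and natural killer cells, stood out among the marker genes and was chosen after its values were seen. It had 10.23 and 10.44 in samples 2 and 1 of the calorie restriction animal, against 6.69 and 8.17 in those of the ad libitum animal, a mean log2 difference of 2.91. The other measured markers of these cells differed by -0.47 to 0.38 between the animals. Only 3 of the 9 measured, GNLY included, were past the level filter, so most of these small differences come from dim signals.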
